A study of Mus musculus with 4 samples.

Results

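Olfactory sensory neurons that had chosen Olfr2, the gene of the odorant receptor known as I7, are described here by the other genes they transcribe. They were 112 of 41911 barcodes in 4 single-cell RNA libraries of the mouse main olfactory epithelium. A barcode was taken as a neuron when it had at least 500 detected genes, at most 10% mitochondrial UMIs, at least 5 UMIs of Omp (a protein of mature olfactory neurons) and at most 15 UMIs of Cyp2g1 (an enzyme of the supporting sustentacular cells). A UMI, or unique molecular identifier, marks 1 captured RNA molecule. The members were thus chosen by these UMI counts and by their receptor UMIs: a neuron was assigned to its most abundant receptor gene when that gene had at least 3 UMIs and 80% of all odorant receptor UMIs. The same rule assigned 17766 neurons to other receptors, 91 of them to Olfr6, the numbered relative of Olfr2. The libraries came from wild type C57BL/6J mice aged 3 months, 2 females and 2 males, with no treatment or transgene named in the labels. Each library is called a replicate in the labels, and nothing states how many mice entered each one, so the p-values of the main tests measure the spread between these 4 libraries.

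Each mature olfactory neuron transcribes mainly 1 of the many odorant receptor genes, and the axons of neurons with the same receptor converge on the same glomeruli of the olfactory bulb. Signalling through the receptor and its cyclic AMP sets the level of guidance and adhesion molecules on those axons, so neurons of different receptors carry different mixtures of them. The I7 receptor responds to aldehydes and was among the receptors used to work out how odorants and axons are matched to receptor identity. The series itself is concerned with neurexins, adhesion proteins of the presynaptic side, and the targeting of these axons.

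Olfr2 (ENSMUSG00000070417) lies at chr7:106995399-107006072 and Olfr6 (ENSMUSG00000036647) at chr7:106953251-106963937, both on the minus strand of GRCm38 in GENCODE M21, with 31461 bases between them. Their coding regions lie within 1 exon each and are 984 and 951 bases long with the stop codon. Over 951 aligned bases 61.9% were identical, and the longest run shared by both genes was 14 bases. The stretches printed show how far apart the transcripts of these neighbours are, since neurons were assigned by them. They run over 150 aligned bases, from base 274 of the Olfr2 and base 253 of the Olfr6 coding sequence, at chr7:107001436-107001585 and chr7:106956533-106956682. They were read 5′ to 3′ from the GENCODE M21 transcripts, and capitals mark the 51 positions at which the genes differ.
Olfr2: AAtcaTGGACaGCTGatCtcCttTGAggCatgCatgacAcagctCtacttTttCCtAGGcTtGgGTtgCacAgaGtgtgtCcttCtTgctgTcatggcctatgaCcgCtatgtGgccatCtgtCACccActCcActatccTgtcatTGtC
Olfr6: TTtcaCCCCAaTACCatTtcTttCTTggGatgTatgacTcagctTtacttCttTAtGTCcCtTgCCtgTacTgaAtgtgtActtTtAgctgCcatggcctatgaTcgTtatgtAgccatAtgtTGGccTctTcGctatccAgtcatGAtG
No Olfr6 UMI was found in the 112 Olfr2 neurons and no Olfr2 UMI in the 91 Olfr6 neurons. The Olfr2 neurons held 2952 Olfr2 UMIs and the Olfr6 neurons 7641 Olfr6 UMIs.

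Values of the 4 libraries are given in the order female 1, female 2, male 1, male 2 throughout. The Olfr2 neurons numbered 36, 21, 28 and 27. They made up 0.795% of the assigned neurons of the first library (exact binomial 95% interval 0.557 to 1.10), 0.487% (0.302 to 0.743) and 0.631% (0.420 to 0.911) of the next ones and 0.587% (0.387 to 0.853) of the last. Olfr2 was the number 13 by frequency of 959 receptors over all libraries. The 2 female libraries held the highest and the lowest share and the male libraries lay between them. The mean was 0.641% ± 0.218 (SD, n = 2) in females and 0.609% ± 0.0314 (SD, n = 2) in males, and an exact two-sided permutation test gave p = 1, where 0.3333 is the smallest p that 2 against 2 libraries allow. These intervals cover counting error only.

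The choice of members used the receptor UMIs, so their level is given as a description. The median number of Olfr2 UMIs per Olfr2 neuron was 26.5, 24, 24 and 28. Neurons of all other receptors held medians of 68, 61, 62 and 57 UMIs of their own receptor, and Olfr6 neurons 88, 78, 107 and 48.5. The Olfr2 median lay below that of the other neurons in all 4 libraries. Among the 69 receptors with at least 10 neurons in every library, Olfr2 was in place 4 from the lowest by the mean of the 4 medians, 25.6 UMIs, while Olfr6 was in place 42 from the lowest. The receptors next to it in that order, Olfr728 below with library medians of 20 to 27 and Olfr1509 above with 26 to 33, overlapped it. The depth of the cells differed far less. Olfr2 neurons had median totals of 7488, 9150, 6966 and 6872 UMIs, against 8600, 8282, 8094 and 7773 in the other neurons.

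**Figure D1:**
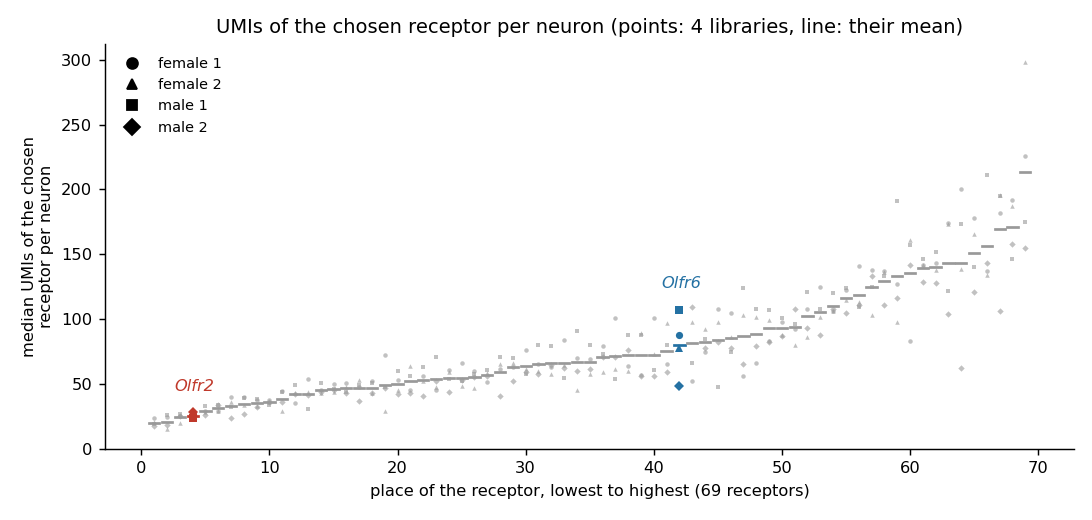
Median UMIs of the chosen receptor per neuron (linear y axis from 0) for the 69 receptors with at least 10 neurons in every library, ordered from lowest to highest on the x axis. Points are the 4 libraries and the short line is their mean; Olfr2 (red) sits in place 4 with library medians of 24 to 28, and Olfr6 (blue) in place 42 with 48.5 to 107.

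Around the thresholds, 128 neurons had Olfr2 as their top receptor. Of these, 4 had fewer than 3 Olfr2 UMIs and 12 had Olfr2 at 53.1% to 78.6% of the receptor UMIs. The members nearest the limits had 3 UMIs and 81.25%, and in 34 members every receptor UMI came from Olfr2. The other receptor UMIs in members were 148 in number and spread over 109 Olfr genes, and the most frequent of them, Olfr727, had 7 UMIs in 7 neurons. The neurons carried the markers of their class. The summed level of 7 markers of mature olfactory neurons, of which Omp was used in the rule, was 26231 to 29985 counts per 1000000 non-receptor UMIs (CPM) in the Olfr2 sums and 27857 to 29582 in the other neurons. The 3 markers of horizontal basal cells were all at 0 UMIs, and of the 4 immune markers Ptprc, C1qa and S100a8 were at 0. Sustentacular markers summed to 168 to 555 CPM with the highest value in male 1, against 284 to 372 in the other neurons.

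A single barcode stood apart. It was an Olfr2 neuron of male 1 with 17878 UMIs, 5431 genes, 61 Omp UMIs and 15 Olfr2 UMIs, and it held 133 UMIs of the epithelial keratins Krt8 and Krt18, which was 76% of those of all 112 neurons. The next highest neuron had 3, and the median was 0. Its Cyp2g1 count of 11 was the highest of the members, and it was among the 8 members (7.14%) with a high simulated-doublet score, against 5.02% of the other neurons. Each main count is therefore also given without it, a choice made after seeing the data. Libraries held between 100725429 and 111577458 UMIs, 895 barcode sequences occurred in more than 1 library, and 7 members had such a barcode, none of them assigned to Olfr2 in the other library.

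Olfr2 neurons were then compared with neurons of all other receptors. UMI counts were summed over the neurons of a kind in each library and tested over 8770 genes, without the receptor genes. Levels are given in CPM of a sum. In Olfr2 neurons 77 genes (0.878%) were higher and 129 (1.47%) were lower, together 2.35% of the genes tested, and 1014 genes had an unadjusted p under 0.05. The median log2 fold change of all genes was -0.03. Genes higher in Olfr2 neurons included the neurotrophin Ntf3, the adhesion molecule Kirrel2 and its neighbour Nphs1, the ephrin receptors Epha5 and Epha7, the calcium-binding S100a5 and the channel subunits Kcng1 and Kcnmb3. Genes lower in Olfr2 neurons included the ephrins Efna3 and Efna5 and the adhesion molecules Kirrel3, Tenm2, Tenm4 and Pcdh7. The dorsal marker Nqo1 and the complement regulator Cd55 were lower as well. Of these, Efna5, Tenm4, Pcdh7, Nqo1 and Cd55 had fewer than 10 UMIs in the Olfr2 sums. They passed the minimum of 10 UMIs, seen or expected, only through the other neurons, where they were high. Their calls are therefore given as descriptions.

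The balance of the calls moved with the analysis. With RLE in place of TMM scaling 116 genes were higher and 118 lower. Without the keratin-rich barcode 153 genes were higher and 256 lower. Leaving out a library left 39 higher and 69 lower without female 1, and 40 and 73 without male 2. When each receptor with at least 10 neurons in every library was kept as its own sum, and Olfr2 was set against the unweighted mean of the other 68, the counts were 148 higher and 25 lower, and 92 of the 206 genes were called in both fits. This mean is of fitted log levels, not of CPM, so receptors at low levels weigh more in it than in a mean of CPM. The p-values of this fit rest on the residual spread of all these receptor sums, with a common dispersion. They are not directly comparable with those of the main test.

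**Figure D2:**
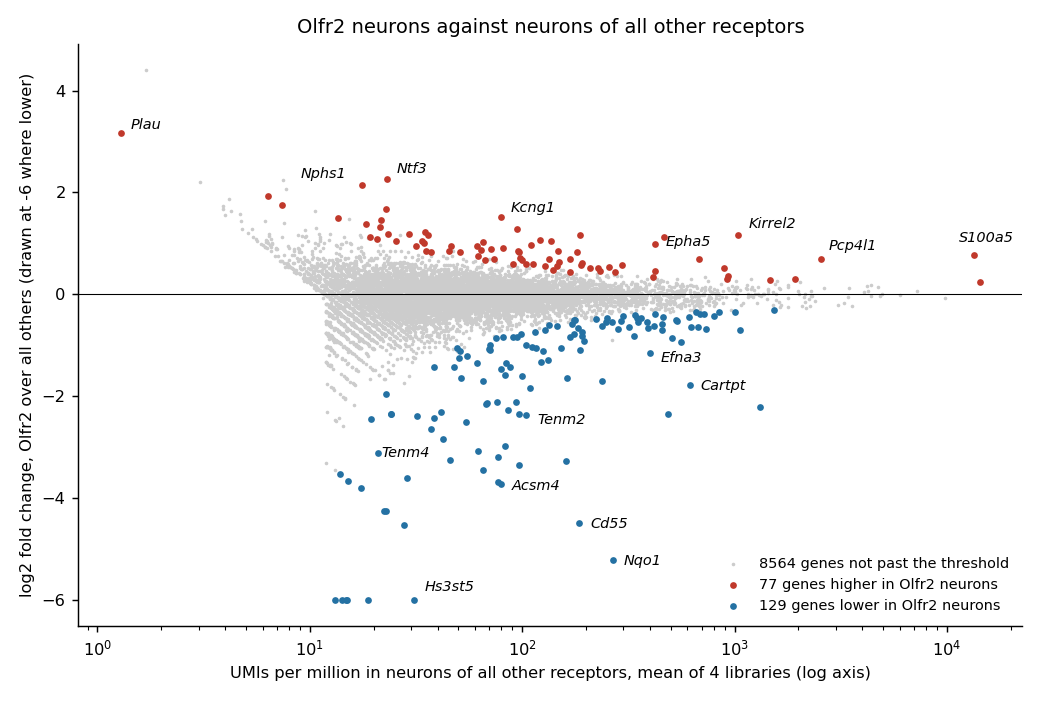
Log2 fold change of Olfr2 neurons over neurons of all other receptors (y axis, values under -6 drawn at -6) against the level in those other neurons (x axis, CPM, log axis), 1 point per gene tested. The 77 genes called higher (red) reach from Plau at the lowest levels to S100a5 at the highest, and the 129 called lower (blue) include Nqo1, Cd55 and Hs3st5.

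Among the 25 tested genes of axon sorting and guidance, 4 were higher (Kirrel2, Epha5, Epha7, Plxna1), 5 were lower (Kirrel3, Efna3, Efna5, Pcdh7, Nrp2) and 16 did not pass. The called share lay above the 2.35% of all genes, with a median log2 fold change of -0.06 against -0.03 over all genes. All gene lists were chosen with earlier results of these data known, so such shares are no independent evidence, and some genes belong to several lists. Without the keratin-rich barcode Sema3f was called lower as well (log2 -2.72, adjusted p = 0.0152). Kirrel2, a homophilic adhesion molecule whose level in these neurons is known to follow activity, stood at 2398, 2309, 2179 and 2346 CPM in the Olfr2 sums. In the other neurons it stood at 1160, 1046, 1087 and 860. Every Olfr2 sum lay above every other sum, as one or the other group did in 14.3% of all genes tested, with a log2 fold change of 1.16 (SE 0.08, adjusted p = 1.61e-10). Kirrel3, the related adhesion molecule found on a complementary set of olfactory axons, was at 11.5, 25.3, 20.0 and 21.7 in Olfr2 neurons. The other neurons had 99.8, 98.7, 90.8 and 97.2, and the difference was -2.34 (SE 0.26, adjusted p = 1.35e-06). The 2 Kirrel genes thus differed in opposite directions in all 4 libraries, although against the unweighted mean of receptors Kirrel3 missed the threshold (log2 -1.14, adjusted p = 0.0631).

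In the ephrin system 2 receptors were higher and 2 ligands lower. Epha5, a receptor for ephrin-A ligands, had 916, 778, 775 and 867 CPM in Olfr2 neurons against 456, 406, 446 and 384 in the others, a log2 fold change of 0.98 (SE 0.09, adjusted p = 2.03e-08). Epha7 had 131.8 ± 24.0 (SD, n = 4) against 65.2 ± 4.05 (SD, n = 4), a log2 fold change of 1.02 (SE 0.16, adjusted p = 0.000257). The groups did not overlap for either receptor. The ligand Efna3 had 230, 147, 170 and 163 in Olfr2 neurons and 409, 423, 374 and 395 in the others, a log2 fold change of -1.15 (SE 0.12, adjusted p = 9.03e-07). Efna5 rested on 5 UMIs in 3 Olfr2 neurons, at 6.67 ± 10.3 against 37.3 ± 2.92 CPM (SD, n = 4). It lost its call without female 1 (adjusted p = 0.0808). Efna5, and Pcdh7 below, entered the test only through the count expected from the other neurons, so these calls are descriptions. Plxna1, a semaphorin co-receptor, and Nrp2, a neuropilin, differed least, with log2 fold changes of 0.59 (adjusted p = 0.0456) and -0.63 (adjusted p = 0.0270). Both lost their calls without female 1 (adjusted p = 0.251 and 0.0715) and without male 2 (0.393 and 0.185), and Nrp2 also without female 2 (0.226). Pcdh7, a protocadherin, had 5 UMIs in Olfr2 neurons, 80% of them in 1 neuron, against 77.3 ± 7.47 CPM (SD, n = 4) in the others, and its call did not hold against the unweighted mean of receptors (log2 -2.02, adjusted p = 1). Cntn4 (log2 -0.06, adjusted p = 0.859) and Ncam1 (0.00, adjusted p = 0.999), both axonal adhesion molecules, did not pass.

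**Figure D3:**
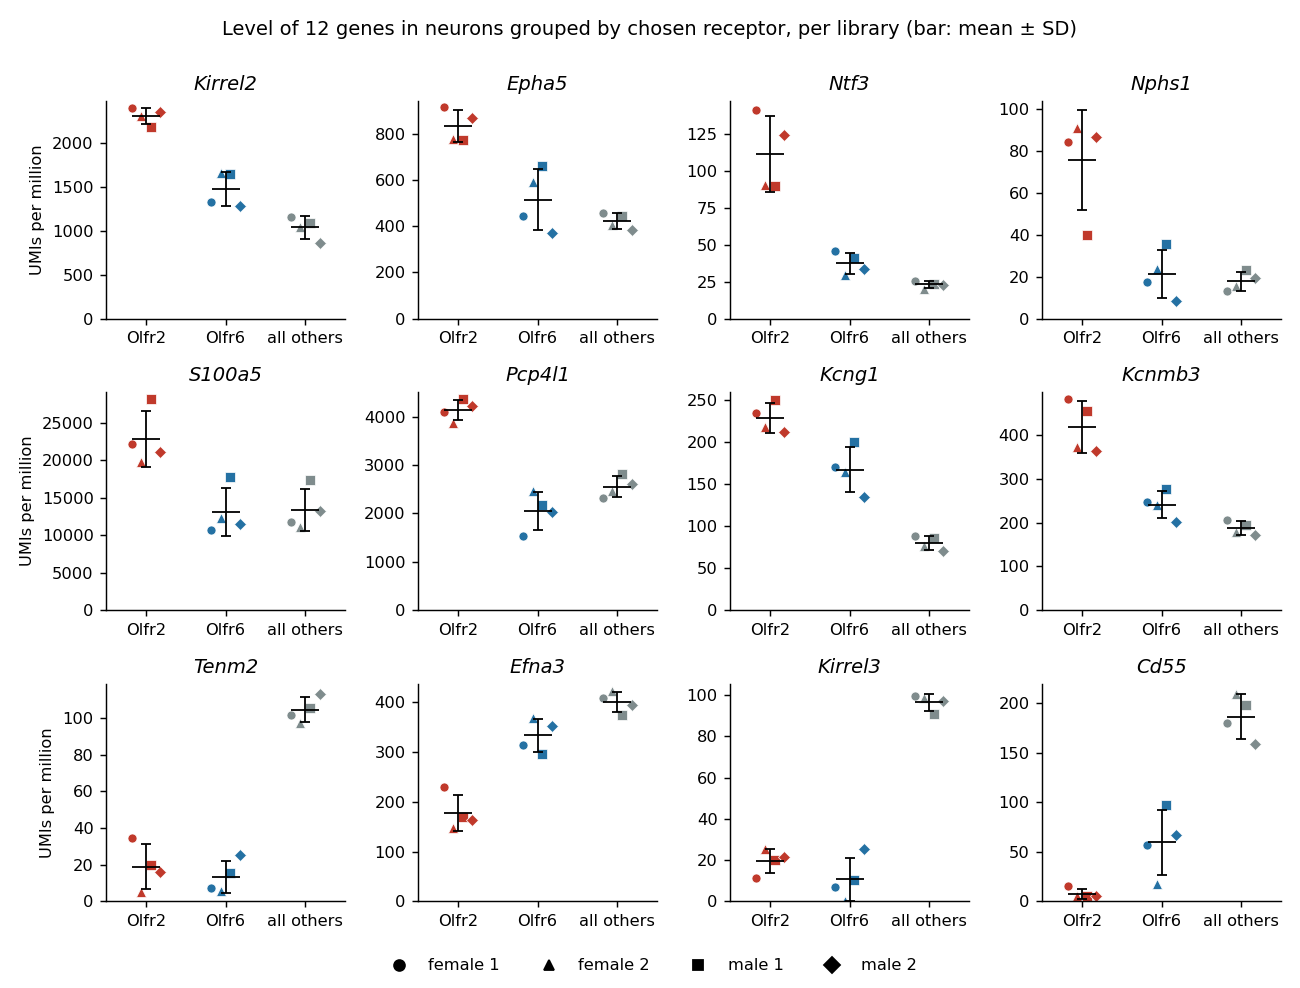
Levels of 12 genes (y axes, CPM, linear from 0) in sums of Olfr2 neurons (red), Olfr6 neurons (blue) and neurons of all other receptors (grey). Symbols are the 4 libraries and bars are mean ± SD; for Kirrel2, Epha5, Ntf3, Nphs1, S100a5, Pcp4l1, Kcng1 and Kcnmb3 the 4 Olfr2 sums lie above the grey ones, and for Tenm2, Efna3, Kirrel3 and Cd55 below them.

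Among the neurexins, Nrxn2 did not pass the test in Olfr2 neurons. It stood at 30.6, 40.4, 14.996 and 10.8 against 19.0, 19.4, 17.7 and 19.8 (log2 0.38, SE 0.37, adjusted p = 0.768), and the groups overlapped. Nrxn3 was too low to be tested. The 14 tested genes of neurexins and their partners had a median log2 fold change of -0.01. None of them was higher and 2 were lower, against 0.878% and 1.47% of all genes. Tenm2 and Tenm4, teneurins that bind latrophilins across the synapse, were the 2. Tenm2 had 34.5, 5.05, 20.0 and 16.3 CPM against 102, 97.4, 106 and 113, a log2 fold change of -2.38 (SE 0.28, adjusted p = 2.85e-06). Tenm4 rested on 4 UMIs in 4 Olfr2 neurons, at 4.92 ± 4.49 against 45.7 ± 0.484 (SD, n = 4, log2 -3.26, adjusted p = 4.75e-05). It entered the test only through the count expected from the other neurons, so its call is a description. For both teneurins every Olfr2 sum lay below every other sum. Clstn1, a calsyntenin, had the highest level of the list and was at 1124 ± 61.1 against 1015 ± 23.8 (SD, n = 4, adjusted p = 0.473). No member of the 15 tested genes of presynaptic release passed with all neurons, but without the keratin-rich barcode 3 were called higher. They were the fusion protein gene Snap25 (log2 0.29, adjusted p = 0.126 with all neurons and 0.0120 without the barcode), the glutamate transporter gene Slc17a6 (0.35, adjusted p = 0.145 and 0.0120) and the synapsin gene Syn2 (0.40, adjusted p = 0.121 and 0.0349). Against the unweighted mean of receptors Slc17a6 and Syn2 were called as well (adjusted p = 0.00740 and 0.0338).

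Of the 11 tested genes linked to neuronal activity, 5 were higher and 3 lower, against 0.878% and 1.47% of all genes, with a median log2 fold change of 0.31. Without the keratin-rich barcode the counts were 6 and 3, and against the unweighted mean of receptors 5 and 0. S100a5, a calcium-binding protein whose transcript rises with odorant exposure, had 22140, 19739, 28173 and 21166 CPM in Olfr2 neurons and 11789, 11134, 17317 and 13170 in the others. Male 1 was the highest in both groups, and the groups did not overlap (log2 0.78, SE 0.07, adjusted p = 1.20e-08). Pcp4l1, a small relative of the calmodulin-binding protein Pcp4, had 4092, 3860, 4364 and 4226 against 2314, 2464, 2818 and 2611 (log2 0.70, SE 0.07, adjusted p = 1.60e-07). Lrrc3b and Dlg2 were higher by log2 0.83 (adjusted p = 1.05e-05) and 0.56 (adjusted p = 0.00956), and Dlg2 lost its call without female 1 (adjusted p = 0.0994). The 3 lower genes were Kirrel3, whose level is known to fall with activity, Calb2 and Gap43. Calb2, the calcium buffer calretinin, was at 23.0, 268, 55.0 and 59.6 against 536, 498, 459 and 446 (log2 -2.35, SE 0.26, adjusted p = 1.12e-06), and 44.4% of its UMIs in Olfr2 neurons came from 1 neuron. Against the unweighted mean of receptors Calb2 missed the threshold (log2 -1.28, adjusted p = 0.486), as did Jun (-0.27, adjusted p = 0.708). Of the immediate early genes 1 of 11 was higher and 3 were lower, against 0.878% and 1.47% of all genes, with a median of -0.13. Without the keratin-rich barcode Fos (log2 -0.27, adjusted p = 0.0380), Junb (-0.63, adjusted p = 0.00195) and Atf3 (-1.54, adjusted p = 1.16e-06) were called lower as well. Jun and Jund were lower by log2 -0.71 and -0.35, and Egr1 by -0.67. Nr4a1, an orphan nuclear receptor, was called higher (log2 1.05, adjusted p = 0.00436), with 268, 182, 600 and 114 against 148, 145, 126 and 124. Male 2 lay below the other neurons, 36.4% of the Nr4a1 UMIs were in the keratin-rich barcode, and the call was lost without male 1 (adjusted p = 0.111) and without female 1 (0.0895). Jund was lost without female 1 (adjusted p = 0.117), female 2 (0.187) and male 2 (0.103), and Egr1 without female 1 (0.234) and male 2 (0.262).

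Of 20 tested genes of olfactory transduction 1 was higher and 2 were lower, where 0.878% and 1.47% of all genes were, and the median was -0.07. Without the keratin-rich barcode 1 was higher and 4 were lower, among them the calcium-activated chloride channel Ano2 (log2 -0.50, adjusted p = 0.0321), which with all neurons stood at -0.54 (adjusted p = 0.0573). The cyclic AMP phosphodiesterases Pde4a and Pde7b were lower by log2 -0.42 (adjusted p = 0.00436) and -0.68 (adjusted p = 0.00278). Pde4a lost its call without female 1 (adjusted p = 0.0674) or female 2 (0.0737). The olfactory G protein Gnal (log2 -0.18, adjusted p = 0.265; 0.0354 with high doublet scores removed) and the cyclase Adcy3 (log2 -0.11, adjusted p = 0.697; 0.0444 at the stricter receptor rule) did not pass. Of the 17 tested genes of receptor trafficking and the unfolded protein response none was called with all neurons. Rtp1, which carries receptors to the membrane, was at 565 ± 58.5 against 690 ± 31.3 (SD, n = 4, log2 -0.29, adjusted p = 0.104; 0.0499 without the keratin-rich barcode and 0.0193 with high doublet scores removed), and Atf5, a factor of the response that stabilises receptor choice, at 2230 ± 244 against 2289 ± 167 (SD, n = 4, adjusted p = 0.903). Ddit3, a factor of the stress response, was at log2 -0.56 (adjusted p = 0.292) and was called lower in 5 of 17 alternatives, with high doublet scores removed among them (-0.59, adjusted p = 0.0241). None of the 17 genes of receptor choice and chromatin and none of the 18 ciliary genes passed, and of 76 cytosolic ribosomal proteins 1 was lower (Rpl27a, log2 -0.41, adjusted p = 0.0346).

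Among 16 tested ion channel genes 2 were higher and none lower, against 0.878% and 1.47% of all genes, with a median of 0.17. Without the keratin-rich barcode Kcnh3 was also called higher (log2 0.62, adjusted p = 0.0477) and Scn9a was called lower (-0.27, adjusted p = 0.0454). Kcnmb3, an accessory subunit of calcium-activated potassium channels, had 483, 374, 455 and 363 CPM against 206, 178, 195 and 172, a log2 fold change of 1.16 (SE 0.10, adjusted p = 1.38e-08). Kcnn2, a small-conductance channel of the same class, was higher by 0.71 (adjusted p = 0.00493) and lost its call without female 1 (adjusted p = 0.0889). Kcng1, a modifying subunit of voltage-gated potassium channels outside that list, was among the 12 largest positive differences, at 234, 217, 250 and 211 against 88.4, 75.7, 85.0 and 70.5 (log2 1.51, SE 0.13, adjusted p = 1.25e-08). The levels of Kcnmb3, Kcnn2 and Kcng1 did not overlap between the groups, as was the case for 14.3% of all genes tested.

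The largest positive differences of all were in genes of low level. Plau, the urokinase protease, rested on 10 UMIs in 8 neurons (log2 3.17, SE 0.86, adjusted p = 0.0485). Plau met the minimum of 10 UMIs only through the Olfr2 neurons, where it was high, so its call is given as a description. Ntf3, which encodes neurotrophin-3, had 142, 90.9, 90.0 and 125 CPM in Olfr2 neurons against 25.7, 20.2, 23.8 and 23.1, and the UMIs came from 55 of the 112 neurons (log2 2.27, SE 0.20, adjusted p = 2.50e-08). Nphs1, which encodes the adhesion protein nephrin, had 84.3, 90.9, 40.0 and 86.7 against 13.1, 15.6, 23.0 and 19.2 (log2 2.14, SE 0.29, adjusted p = 2.78e-05). Nphs1 and Kirrel2 are neighbours on opposite strands, at chr7:30458315-30487223 and chr7:30447534-30457690 (GRCm38, GENCODE M21), with 624 bases between their starts. Across the 69 receptors the log2 levels of the pair were positively correlated (Pearson r = 0.63, Spearman rho = 0.68). The correlation of Kirrel2 with S100a5, which lies on chromosome 3, was higher (r = 0.77, rho = 0.74), so that of the neighbours was not particular to them. Kirrel2 and Kirrel3 ran against each other (r = -0.47, rho = -0.45). These are descriptions, since all receptors share the same 4 libraries. Sgca, Ppp1r3c, Nrde2, Dleu7, Trib1, Dhrs3, S100a2 and Ephx1 completed the 12, with log2 fold changes of 1.27 to 1.93. Sgca and Ppp1r3c, like Plau, met the minimum of 10 UMIs only through the Olfr2 neurons, where they were high, so their calls are descriptions. Nrde2, a nuclear RNA-processing protein, was at 73.7 ± 31.1 against 22.9 ± 3.10 CPM (SD, n = 4, adjusted p = 6.88e-05). Sgca, Ppp1r3c, Dleu7 and S100a2 lost their calls when female 1 was left out (adjusted p = 0.238, 0.310, 0.131 and 0.0649) and when female 2 was left out (0.152, 0.238, 0.112 and 0.123). The first 3 also did so without male 2 (0.429, 0.468 and 0.100), and Sgca without male 1 (0.0620). S100a2 overlaps the annotated gene S100a3, so its UMIs may be divided between the 2.

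Of the 12 largest negative differences 6 were in genes with no UMI in any Olfr2 neuron. They entered the test only through the count expected from the other neurons, where they were high, so their place in this order supports nothing. With a floor of 3 counts over the Olfr2 sums, the heparan sulfotransferase gene Hs3st5 was at least 8.66-fold lower, the sodium pump subunit gene Fxyd2 at least 5.24-fold, Spp1 (osteopontin) at least 4.30-fold, H2-Aa (an antigen-presenting molecule) at least 4.18-fold, the basal cell keratin Krt5 at least 4.0033-fold and the ciliary gene Cfap52 at least 3.70-fold. Pcdh11x, Lyz2, Bmp6 and H2-Ab1 had 1 UMI each in Olfr2 neurons and entered the test in the same way, and their counting intervals were wide. The ratio of the other neurons to Olfr2 neurons was 23.3 (exact 95% interval 4.19 to 921) for the protocadherin Pcdh11x and 19.3 (3.46 to 762) for the growth factor Bmp6, and 19.0 (3.41 to 750) for the lysozyme Lyz2 and 14.6 (2.62 to 577) for H2-Ab1. H2-Aa lost its call without male 2 (adjusted p = 0.0778), and H2-Ab1 and Lyz2 lost theirs without female 1 (0.116 and 0.0750). Krt5 is among the horizontal basal markers, and H2-Aa, H2-Ab1 and Lyz2 are genes of immune cells, so markers of other cells moved with this group. Horizontal basal markers summed to 0 in Olfr2 neurons and 15.5 to 37.1 CPM in the others, with 3 of 3 at 0 in Olfr2 neurons. Immune markers summed to 4.999 to 10.8 against 31.1 to 139, with 3 of 4 at 0 in Olfr2 neurons. None of these markers was at 0 in the others, whose far larger sums leave little room for a 0. The Olfr6 sums, closer in size, held 0 to 11.7 CPM of basal and 0 to 10.6 CPM of immune markers. There 2 of the 4 immune and none of the basal markers were at 0. Of the Spp1 UMIs in the other neurons 97.5% were in 10 barcodes. The part of such cells in these differences was not tested.

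Nqo1 and Cd55 carried the largest negative differences with more than 1 UMI. Both, and Acsm4 below, had fewer than 10 UMIs in the Olfr2 sums. They entered the test only through the count expected from the other neurons, where they were high, so their calls are descriptions. Nqo1, a quinone reductase and a marker of the dorsal zone of the epithelium, had 11.49, 0, 14.996 and 0 CPM in Olfr2 neurons against 256, 236, 232 and 347 (log2 -5.22, SE 0.31, adjusted p = 2.29e-11). Acsm4, an enzyme gene of the dorsal zone, had 5.77 ± 4.28 against 79.8 ± 15.4 (SD, n = 4, log2 -3.73, adjusted p = 4.25e-07). With the retinoid-binding Crabp1 (log2 -1.35, adjusted p = 0.00318) these were the 3 lower of 9 tested genes of zone and position, and none was higher. The shares over all genes were 1.47% lower and 0.878% higher. The comparison pool was a mixture in this respect. Nqo1 was at 7.20 ± 1.21 (SD, n = 4) in the 6069 neurons of the other 68 frequent receptors and at 416 ± 73.8 in the 11697 neurons of the remaining 890 receptors, and Acsm4 at 4.29 ± 1.11 and 123 ± 20.3. Among the 69 frequent receptors Olfr2 was in place 29 from the highest for Nqo1 and 18 for Acsm4, and the highest of them reached 32.9 and 28.4. Hs3st5 was likewise at 9.23 ± 0.809 in neurons of the frequent receptors and 43.2 ± 6.84 in the rest. Crabp1 lost its call with the high doublet scores removed (log2 -0.34, adjusted p = 0.787) and at the stricter receptor rule of 10 UMIs and 95% (adjusted p = 0.247). Rarb, a retinoic acid receptor, was at 68.96, 20.2, 49.99 and 21.7 against 23.6, 19.8, 17.0 and 14.9 and missed the threshold (log2 1.11, adjusted p = 0.0668), but was called higher in 6 of 17 alternatives, without the keratin-rich barcode (adjusted p = 0.0147) and with high doublet scores removed (0.0144) among them.

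Cd55, a regulator of complement known to vary with receptor identity in these neurons, had 15.3, 5.05, 4.999 and 5.42 CPM in Olfr2 neurons against 179, 209, 198 and 158 (log2 -4.49, SE 0.28, adjusted p = 6.32e-11). It belongs to a list of 12 genes that varied between receptors in earlier results of these libraries, which is no independent evidence. Of that list none was higher and 8 were lower (Avp, Calb2, Cartpt, Cd55, Cidea, Olig1, Pcdh7, Pde7b), against 0.878% and 1.47% of all genes. The median was -1.07. Avp, Cd55 and Pcdh7 entered the test only through the count expected from the other neurons, so their calls are descriptions. The mixture in the pool showed here too. The neuropeptide gene Cartpt was at 175 ± 48.5 in Olfr2 neurons, 158 ± 18.1 in the other frequent receptors and 875 ± 119 in the rest (SD, n = 4), and Avp, which encodes vasopressin, at 8.20 ± 7.14, 173 ± 89.2 and 23.9 ± 5.50. Cd55 was at 119 ± 20.96 in the frequent receptors and 225 ± 27.0 in the rest, but its median over the 69 receptors was 16.4, and Olfr2 was in place 62. Against the unweighted mean of receptors Cd55 was at log2 -1.75 (adjusted p = 0.308), and Avp, Cartpt and Olig1 turned to log2 1.06, 0.76 and 0.22, none of which passed. That mean is of log levels and is not the pooled CPM given here for the frequent receptors. Of 12 genes of immature neurons 5 were lower (Gap43, Gng8, Stmn1, Stmn2, Dpysl3) and none higher, against 1.47% and 0.878% of all genes, with a median of -0.53. Gng8 entered the test only through the count expected from the other neurons. Without the keratin-rich barcode Marcksl1 was called lower as well (log2 -0.92, adjusted p = 0.00719). Gap43, a growth cone protein, was at 30.6, 90.9, 60.0 and 32.5 against 159, 168, 152 and 173 (log2 -1.64, SE 0.21, adjusted p = 9.20e-06). Stmn1 and Stmn2 lost their calls without female 1 (adjusted p = 0.122 and 0.340) and without male 2 (0.0949 and 0.153). Against the unweighted mean of receptors all 5 missed the threshold, with adjusted p of 0.483 (Gap43), 1 (Gng8), 0.531 (Stmn1), 0.673 (Stmn2) and 0.617 (Dpysl3).

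Set among single receptors, Olfr2 neurons lay near the upper end for several guidance genes. Of 69 receptors they had the highest Ntf3 level, 111.8 ± 25.6 CPM (SD, n = 4), followed by Olfr190 at 83.7. For Kirrel2 they were in place 2 at 2308, between Olfr775 at 2464 and Olfr190 at 2252, and Olfr6 was in place 22 at 1476. Epha7 put them in place 3 at 131.8 and Epha5 in place 4 at 834, while Kcng1 put them in place 2 at 228 behind Olfr166 at 257. Sema7a, a membrane-anchored semaphorin named here after its values were seen, was in place 2 at 1012, next to Olfr166 at 1033 and Olfr775 at 983. For the activity-linked S100a5 and Pcp4l1 they were in places 11 and 17. Near the lower end they were in place 62 for Efna3 and Tenm2 and 66 for Tenm4 and Efna5, while Kirrel3 put them in place 49. Some of these places were shared by Olfr6, which was in place 7 for Sema7a, 8 for Kcng1, 66 for Tenm2 and 61 for Tenm4. Its places for Ntf3, Epha7, Epha5, Efna3 and Efna5 were 17, 27, 31, 39 and 52. For Nrxn2 the Olfr2 neurons were in place 21 at 24.2, where the receptors ran from 6.64 to 38.4. The order of neighbours within a few places was not tested.

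**Figure D4:**
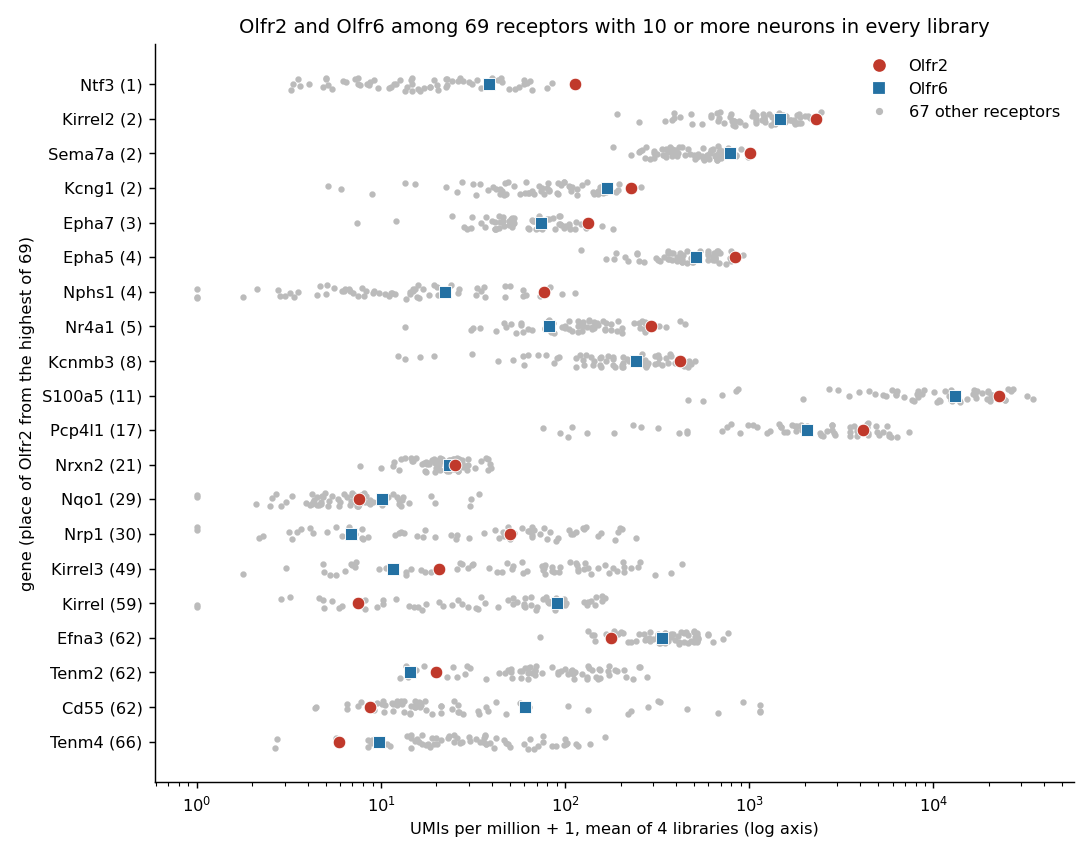
Level of 20 genes (x axis, CPM plus 1, log axis, mean of 4 libraries) in neurons of 69 receptors, with Olfr2 in red, Olfr6 in blue and the other 67 in grey. Olfr2 is in place 1 for Ntf3, place 2 for Kirrel2, Sema7a and Kcng1, and in place 62 or lower for Efna3, Tenm2, Cd55 and Tenm4; the number after each gene is this place from the highest.

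The receptors most like Olfr2 were sought by the correlation of log2 levels, centred on the mean of the 69 receptors, between the females of one and the males of the other, over 889 genes with a mean of at least 200 CPM. This minimum was raised after a lower one had given weak correlations. Olfr2 with itself, females against males, gave r = 0.52. The closest other receptor was Olfr711 with a mean r of 0.47, followed by Olfr414 with 0.37 and Olfr190 with 0.37, and Olfr6 was in place 10 of the 69 with 0.30. Olfr711 lies at chr7:106969694-106975453 (GRCm38), between Olfr6 and Olfr2. It also had the highest S100a5 level (34571 CPM) and the highest Pcp4l1 level (7356) of the 69. These values are descriptions of receptors that share libraries, and across genes that are not independent.

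Against Olfr6 neurons alone, 22 of 8670 genes (0.254%) were higher in Olfr2 neurons and 13 (0.15%) were lower, together 0.404%, and 536 genes had an unadjusted p under 0.05. The median over all genes was 0.03. This comparison uses the same Olfr2 sums as the one against all receptors, so the 2 are not independent. Higher in Olfr2 neurons were Kirrel2, Epha5, Nrp1, S100a5, Pcp4l1, Ntf3, Nphs1 and Kcnmb3, and lower were the adhesion molecule Kirrel, Cd55 and Efna3. Nrp1, Kirrel and Cd55 entered this test only through the group where they were high. DESeq2 called 4 higher and 1 lower with 56 genes at an unadjusted p under 0.05, and leaving out female 1 left 16 and 4, while leaving out male 1 gave 24 and 29. Without the keratin-rich barcode 21 were higher and 30 lower.

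Of the 24 guidance genes tested against Olfr6, 3 were higher and 1 was lower, against 0.254% and 0.15% of all genes, with a median of 0.18. Kirrel2 stood at 1326, 1652, 1640 and 1285 CPM in Olfr6 neurons, below every Olfr2 sum, where 4.18% of all genes tested did not overlap (log2 0.66, SE 0.10, adjusted p = 0.00102). Epha5 stood at 442, 592, 659 and 369 (log2 0.71, SE 0.14, adjusted p = 0.00828), but lost its call without female 1 (adjusted p = 0.375) or male 2 (0.130). Nrp1, a semaphorin receptor that sorts axons from front to back of the bulb, had 46.0, 25.3, 49.99 and 75.8 in Olfr2 neurons and 3.54, 11.7, 0 and 8.397 in Olfr6 neurons. The Olfr2 sums all lay above the Olfr6 sums, with a log2 fold change of 3.02 (SE 0.59, adjusted p = 0.0106). It missed the threshold without female 1 (0.175) or male 2 (0.131). Nrp1 met the minimum of 10 UMIs only through the Olfr2 neurons, where it was high, so this call is a description. In the other neurons Nrp1 was at 46.2 ± 2.30 (SD, n = 4). Against all other neurons together Olfr2 neurons did not pass for Nrp1 (log2 0.07, adjusted p = 0.952), but against the unweighted mean of receptors, taken over log levels, they were called higher (log2 0.96, adjusted p = 0.0417). By level they were in place 30 of 69 receptors for Nrp1, at 49.3 CPM where the median was 42.6 and the highest 240. Efna3 had 315, 369, 296 and 353 in Olfr6 neurons (log2 -0.87, SE 0.17, adjusted p = 0.00828) and lost its call without female 2 (0.152) or male 2 (0.0630). Kirrel, another gene of the Kirrel family, had 0, 10.1, 4.999 and 10.8 in Olfr2 neurons and 95.5, 129, 56.2 and 75.6 in Olfr6 neurons (log2 -3.79, SE 0.48, adjusted p = 3.61e-05). Neurons of all other receptors had 63.2, 65.9, 66.8 and 65.9. Kirrel entered the test only through the count expected from Olfr6 neurons, where it was high, so its call is a description.

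Of the 11 activity-linked genes 4 were higher than in Olfr6 neurons and none lower, against 0.254% and 0.15% of all genes, with a median of 0.36. S100a5 had 10714, 12253, 17799 and 11520 CPM in Olfr6 neurons (log2 0.83, SE 0.09, adjusted p = 3.80e-06) and Pcp4l1 1521, 2466, 2167 and 2032 (log2 1.05, SE 0.11, adjusted p = 3.80e-06). For both genes every Olfr2 sum lay above every Olfr6 sum. Dlg2, a synaptic scaffold, was higher by 1.16 (adjusted p = 0.00885) and lost its call without female 1 (0.322) or female 2 (0.0865). Nr4a1 was higher by 1.85 (adjusted p = 5.80e-06) with its sums overlapping. Ntf3 had 46.0, 29.3, 40.9 and 33.6 in Olfr6 neurons (log2 1.54, SE 0.28, adjusted p = 0.00464) and Nphs1 17.7, 23.4, 35.8 and 8.397 (log2 1.73, SE 0.39, adjusted p = 0.0435). Kcnmb3 had 248, 240, 276 and 202 (log2 0.80, adjusted p = 0.00315). Without female 1 the 3 missed the threshold, at 0.143 for Ntf3, 0.503 for Nphs1 and 0.158 for Kcnmb3, and Nphs1 did so also without female 2 (0.346) or male 2 (0.255). The guanine exchange factor Rasgrp4 (log2 2.12, adjusted p = 0.00399) and the growth factor Ptn (log2 1.23, adjusted p = 0.0169) completed the 6 largest with the same sign in 4 libraries, and both missed it without female 1 (0.161 and 0.287), Ptn also without female 2 (0.365).

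Cd55 had 56.6, 17.6, 97.1 and 67.2 CPM in Olfr6 neurons, above every Olfr2 sum (log2 -2.73, SE 0.49, adjusted p = 0.00399), and lost its call without male 1 (0.0602). It entered the test only through the count expected from Olfr6 neurons, where it was high, so its call is a description. Gcnt7, a glycosyltransferase, and Usp21, a deubiquitinase, were lower by log2 -1.16 (adjusted p = 0.0437) and -0.88 (adjusted p = 0.00399). Gcnt7 lost its call without female 1 (0.186), female 2 (0.346) or male 2 (0.115). Herpud1, a factor of protein degradation at the endoplasmic reticulum, was the 1 gene of the 16 tested for trafficking and the unfolded protein response that passed, at 441, 374, 360 and 303 against 524, 539, 542 and 655 in Olfr6 neurons (log2 -0.57, adjusted p = 0.0435). It lost its call without female 1 (0.0989), female 2 (0.222) or male 2 (0.383). Over all genes tested against Olfr6, 0.15% were lower. Reg3g, a secreted lectin and a respiratory marker, was called lower (log2 -4.42), but its Olfr6 level was 2561 in female 1 and 29.3 to 46.0 in the other libraries, and without female 1 it did not pass (log2 -0.57, adjusted p = 0.915). The summed level of 3 respiratory markers, of which Reg3g is 1, was 2982 in the Olfr6 sum of female 1. It was 392.4 to 571 in the other Olfr6 sums and 365 to 456 in Olfr2 neurons. Reg3g itself made up most of the female 1 sum, so this sum is no separate evidence. Kirrel3 (log2 0.97, adjusted p = 0.893), Tenm2 (0.70, adjusted p = 0.906) and the neurexin Nrxn2 (0.11, adjusted p = 0.985) did not pass the test. No gene of the zone, transduction, receptor choice, immature neuron, presynaptic, ciliary, ribosomal or neurexin lists passed against Olfr6, but Nqo1, Acsm4 and Tenm4, which were called against all receptors, were too low to be tested here.

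Within Olfr2 neurons, 2 of 8346 genes (0.024%) were higher in males and none was lower, with 402 genes at an unadjusted p under 0.05, while DESeq2 called none with 31 such genes. Eif2s3y, a gene of the Y chromosome, had 0 and 0 UMIs in females and 19 and 12 in males (adjusted p = 0.00254). Cldn4, a tight junction protein, had 0 and 0 in females and 67 and 2 in males (adjusted p = 0.0414), and 97.1% of these UMIs were in 1 barcode, so that only Eif2s3y was called without the keratin-rich barcode. Leaving out a library gave 3 to 55 calls, with 31 without female 1, 27 without female 2, 3 without male 1 and 55 without male 2. In each of these fits 1 sex has a single library, which is assumed to vary like the libraries of the other sex. On simulated data this comparison of 2 sums with 2 recovered 19% of 2-fold and 84% of 4-fold changes.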

How the data were processed

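The authors deposited raw UMI counts per gene and barcode for 4 droplet libraries (10x Genomics 5′ v2 chemistry, papain dissociation, per the labels' protocols). Cell Ranger made them, in version 6.0.2 per the file headers and in 5.0.1 per the submitters' processing notes, which also name the build mm10. The members and all gene lists were chosen with earlier results of these data known. Counts were summed per library and receptor identity, and genes with at least 10 UMIs seen or expected in the Olfr2 sums were tested in edgeR 4.0.16 under R 4.3.3 by quasi-likelihood, after TMM scaling, with the library as a block for 8 sums and with Benjamini-Hochberg adjustment at 0.05. Sex was tested without a block. Receptor genes, Omp, Cyp2g1 and mitochondrial genes were left out of the tests. SE is the log2 fold change over the square root of F. Levels are counts per 1000000 non-receptor UMIs (CPM) without TMM. Named genes were the 12 largest called differences in each direction with the same sign in 4 libraries (6 against Olfr6), called list members, and up to 4 other members per list. On simulated data with 200 changed genes, 71% of 2-fold and 100% of 4-fold changes were recovered against all receptors (8705 genes). Against Olfr6 23% and 86% were recovered (8678 genes). Of the simulated calls 6.04% were false against all receptors and 1.80% against Olfr6. The simulations gave every gene the same dispersion and changed only genes expected above the minimum count of the test. They do not cover the lowest counts or single outlying barcodes. Doublets were scored but not removed (at 0.8% per 1000 barcodes in an alternative). Alternatives were DESeq2 1.42.0, other scaling and filters, stricter assignment (10 UMIs and 95%), at least 5000 UMIs per barcode, pseudogenes counted as receptors, and leaving out each library. A further alternative kept a sum per library for each frequent receptor, with receptor and library as terms and a common dispersion. It set Olfr2 against the unweighted mean of the fitted log levels of the other 68. Same library means same tissue, which is where the block comes from; deviations of Olfr2 and other sums of a library correlated at -0.12 to 0.19. Gene positions are from GENCODE M21, in which 22285 of 22399 gene IDs were found. Shares carry exact (Clopper-Pearson) 95% intervals. Some genes that entered the fits and counts are not reported here by name.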

Additional observations from a re-analysis of the deposited data

Results flagged for a closer look

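The difference between Olfr2 neurons and other neurons differed by sex in 23 genes by the interaction term of edgeR (0.262% of 8770), each higher in males, among them Krt8, Krt18, Cldn4, Hspb1 and Atf3. In all of these genes the male 1 sum was the highest of the 4 Olfr2 sums, and the single richest neuron held 24.8% (Scgb1c1) to 100% (Sprr1a) of the UMIs in Olfr2 neurons. Without the keratin-rich barcode described above 1 gene was called, Tcaf2, whose 64 UMIs all lay in 1 neuron of male 2, and DESeq2 called none of the 23, with 112 genes at an unadjusted p under 0.05.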

How the results depend on the processing

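Of 60 named genes called against all receptors 22 were called under every alternative that tested them, and of 19 called against Olfr6 4 were. Against all receptors the 206 calls became 409 without the keratin-rich barcode and 321 with high doublet scores removed, and 108 to 289 with 1 library left out. Against Olfr6 the 35 calls became 5 with DESeq2, 9 at the stricter receptor rule, 23 with filterByExpr and 60 without a filter, and 20 to 53 with 1 library left out. Male against female gave 0 calls with DESeq2 and 1 with filterByExpr, without scaling or without the keratin-rich barcode, 5 with high doublet scores removed, and 3 to 55 with 1 library left out. The replicate block by the numbers in the labels gave 21 calls. Same-numbered sums deviated together at r = 0.02. Sums known to share a library correlated at -0.12 to 0.19, so such a check cannot tell whether the numbers pair the libraries. The interaction gave 0 with DESeq2, 1 without the keratin-rich barcode and 2 with high doublet scores removed. With no replicate block for the library, 185 and 26 genes were called against all receptors and against Olfr6, and the named calls that ended included Avp, Crabp1, Dlg2, Egr1, Fxyd2, H2-Aa, H2-Ab1, Hs3st5, Krt5, Lyz2, Nr4a1, Nrp2, Plau, S100a2, Spp1 and Stmn2 (adjusted p = 0.0505 to 0.831) and, against Olfr6, Gcnt7 (0.0511). DESeq2 ended the calls of Cfap52, Efna5, Egr1, H2-Aa, H2-Ab1, Nr4a1, Nrp2, Plxna1, Spp1 and Stmn2 (adjusted p = 0.0538 to 0.767) and 14 of the 19 against Olfr6. The stricter rule ended 10 calls against all receptors and 12 against Olfr6, and the unweighted mean of receptors ended 24, 4 of them with the other sign, Fxyd2, H2-Aa, H2-Ab1, Krt5, Lyz2, Pcdh11x, Spp1 and Efna5 among them. The share of Olfr2 neurons was 0.626% over all libraries, 0.447% at the stricter rule and 0.569% to 0.671% with 1 library left out. Atf3, not called with all neurons (log2 0.15), was called at -1.54 without the keratin-rich barcode, -1.36 at the stricter rule, -0.997 with high doublet scores removed and -1.35 without male 1, and lay at -1.35 to 0.55 with 1 library left out. Against the unweighted mean of receptors Avp (1.06), Cartpt (0.76), Olig1 (0.22), Egr1 (0.00107) and H2bc21 (0.41) had the other sign. Of these, H2bc21, not called with all neurons, passed as higher (adjusted p = 0.00863). The cause of these changes was not tested. Counting limits low genes most, since the Olfr2 sums hold 184590 to 261020 UMIs and 1 UMI is 3.83 to 5.42 CPM.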
